A study of Mus musculus with 24 samples.

Results

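The response of the liver to loss of Hfe in mice of the DBA/2 strain (D2) is described here across all probe sets of the array. It rests on 6 of the 24 arrays of the series, all those whose labels give liver, D2 and a genotype: 3 Hfe-/- livers (D2 KO 1, 2 and 3) and 3 wild-type livers (D2 WT 1, 2 and 3), each from a different male mouse aged 7 weeks and each on its own array. All mice were fed the same diet and were fasted before the tissue was taken. The D2 Hfe-/- mice were bred in the laboratory, whereas the D2 wild-type mice were purchased, so that origin and genotype cannot be told apart. How much chromosome of another strain surrounds the disrupted Hfe gene in these mice is not given in the sources used here. The arrays measure RNA of whole liver, in which fewer cells of a type and less RNA per cell cannot be told apart. The same genotypes in the C57BL/6 strain (B6) and the duodenum of the same D2 mice are used only for comparison.

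Hfe is a major histocompatibility complex class I-like protein of the hepatocyte surface that binds transferrin receptor 1 (Tfrc) and takes part in the signal by which body iron raises hepcidin, the liver hormone that limits iron absorption. Mice without Hfe make too little hepcidin for their iron stores and load iron into hepatocytes. Several systems of the liver that handle iron, heme, oxidants, steroids and fatty acids have well known regulators. NRF2 turns on glutathione and detoxification genes, PPAR-alpha turns on fatty acid oxidation during fasting, the ER stress sensors turn on chaperones, and the timing of growth hormone pulses sets the male or female pattern of steroid-metabolizing enzymes in rodent liver.

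The deposited value of a probe set is its MAS5 signal, a brightness on a linear scale that had been brought to a common trimmed mean on each array. Of the 45101 probe sets, 28061 reached a signal of 20 on at least 3 arrays of liver or of duodenum and were tested, and 13006 genes were each represented by the tested probe set with the highest mean log2 signal in liver. A gene was called when its adjusted p in limma was at most 0.1. The 8 hepatocyte markers on the array summed to signals of 93165 to 116506 in D2 KO livers and 97078 to 103429 in D2 WT livers, and none of them was called. Hfe itself had signals of 82.9, 70.4 and 82.9 in D2 KO 1, 2 and 3, against 437, 434 and 515 in D2 WT 1, 2 and 3, so that every array fits the genotype in its label (log2 fold change -2.55, adjusted p = 1.1e-08).

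In D2 KO livers 379 probe sets rose (1.35% of those tested) and 394 fell (1.4%), together 2.75%, and 3733 had an unadjusted p under 0.05. At the level of genes, 226 rose (1.74% of the 13006) and 207 fell (1.59%), together 433 or 3.33%. The typical change was modest. The median log2 fold change was 0.69 among the genes that rose and -0.64 among those that fell, beside 0.03 over all genes, and 67 rises and 53 falls were at least 2-fold. The arrays of the 2 genotypes did not overlap for 425 of the 433 called genes, beside 19.3% of all genes. Most calls were of well measured transcripts: 264 of the called genes had a mean signal between 100 and 1000, 105 were above 1000 and 64 were below 100.

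**Figure D1:**
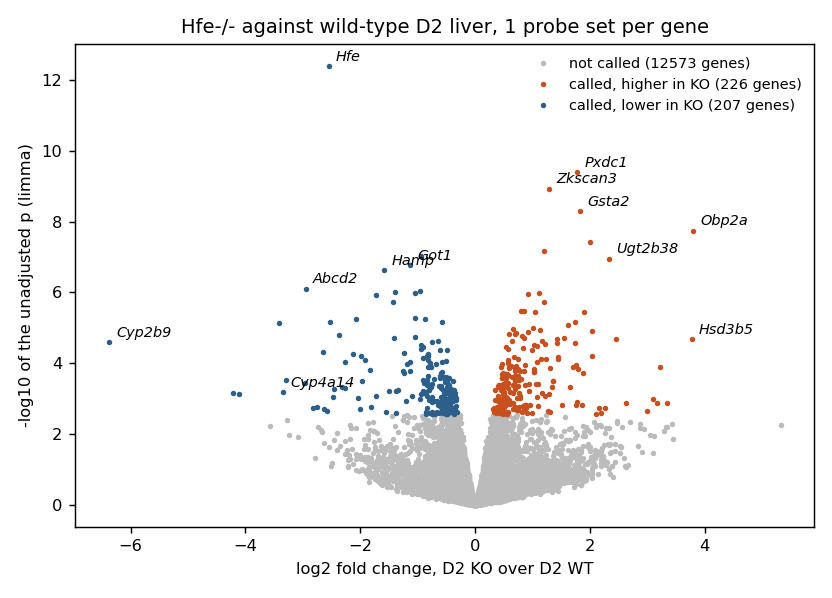
Each point is 1 of 13006 genes, placed by its log2 fold change of D2 KO over D2 WT liver (horizontal axis) and by -log10 of its unadjusted limma p (vertical axis). Orange points are the 226 genes called higher in D2 KO, blue points the 207 called lower and gray points the rest. Hfe has the smallest p, Cyp2b9 the lowest fold change of a called gene and Obp2a the highest.

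The D2 KO livers were not alike. D2 KO 2 and D2 KO 3 correlated at 0.988 over the 9835 probe sets with a mean signal of at least 100, whereas D2 KO 1 correlated at 0.971 and 0.974 with these arrays and at 0.977 to 0.981 with the D2 WT arrays. On the leading principal component (PC1, 58.5% of the variance) D2 KO 1 lay at -1.04, D2 KO 2 at 25.2 and D2 KO 3 at 22.8, against -16.7, -16.4 and -13.8 for D2 WT 1, 2 and 3. On PC2, with 14.9% of the variance, D2 KO 1 lay at -19.0, apart from all other arrays. D2 KO 1 therefore stood between the genotypes on PC1 and by itself on PC2. The 3 D2 KO arrays and D2 WT 3 were hybridized in 1 run, D2 WT 1 and D2 WT 2 in other runs together with B6 arrays, so that the distance of D2 KO 1 from D2 KO 2 and 3 is a distance within a run.

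**Figure D2:**
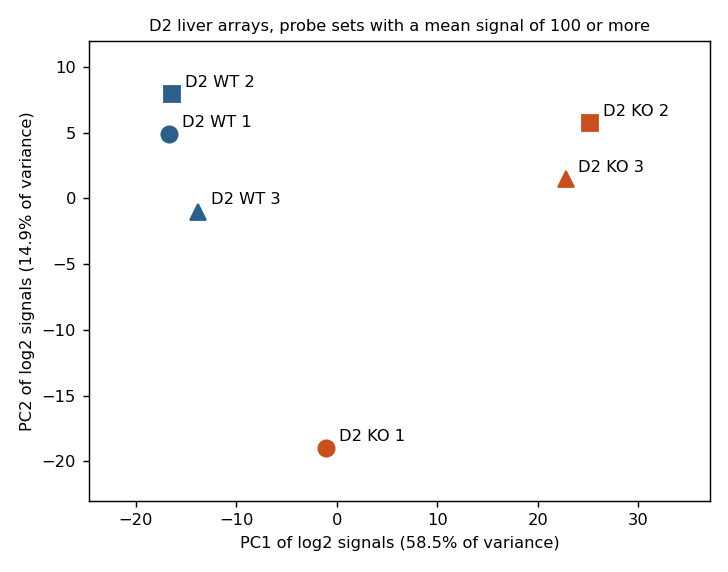
Scores of the 6 D2 liver arrays on PC1 (horizontal axis, 58.5% of the variance) and PC2 (vertical axis, 14.9%) of log2 signals over probe sets with a mean signal of at least 100. Orange marks are D2 KO and blue marks D2 WT arrays; D2 KO 1 lies between the genotypes on PC1 and below all other arrays on PC2.

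The number of calls depended on single arrays. Without D2 KO 1 the calls grew to 471 rises and 493 falls, 7.41% of all genes, and they held 216 of the 226 rises and 199 of the 207 falls found with all arrays. Without D2 KO 2 there were 63 rises and 64 falls, without D2 KO 3 70 and 68, without D2 WT 1 90 and 59, without D2 WT 2 103 and 79, and without D2 WT 3 169 and 107. A core of 52 rises and 45 falls was called whichever of the 6 arrays was left out, and the genes whose call is given with its statistics below belong to it unless the arrays that end the call are named. With hybridization run as a block, which leaves D2 WT 3 as the only wild-type array of the knockouts' run, 59 genes were called (0.454%), among them 20 of the 226 rises (0.261% of all genes were called as rises) and 22 of the 207 falls (0.192%). The median log2 fold changes of the called genes within that run were 0.61 for the rises and -0.65 for the falls. Of the called genes described with their values below, those called with the block too were Obp2a, Gsta2, Med18, Hsd3b5, Cyp7b1, Osgin1, Serpina12, 9130409I23Rik, Ugt2b38, Aox1, Abcg2, Elovl3, Pdia6, Arntl, Pxdc1 and Zkscan3 among the rises, and Hfe, Abcd2, Slco1a4, Slc7a2, Got1, Fgl1, Hamp, Hamp2, Tfrc, Usp2, Per3 and Agtr1a among the falls. Ddc among the rises and Akr1c19 and Sdc1 among the falls were called with the block as well. The call of every other called gene described with its values was lost with run as a block.

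The genes with the largest rises were led by secreted and steroid-metabolizing proteins. Obp2a, which encodes a lipocalin that carries small lipophilic molecules, had signals of 850.0, 824 and 793 in D2 KO 1, 2 and 3, against 61.4, 54.4 and 62.2 in D2 WT 1, 2 and 3. All 3 D2 KO arrays lay close together, far above the D2 WT arrays, and the log2 fold change of 3.80 ± 0.35 (standard error, n = 3 each, adjusted p = 6.3e-05) was the largest rise named by size. Gsta2, a glutathione S-transferase that conjugates electrophiles, behaved in the same even manner, with 2161, 1704 and 1902 in D2 KO and 515, 494 and 619.5 in D2 WT livers (log2 fold change 1.82, adjusted p = 2.4e-05). Dct, the dopachrome tautomerase of melanin synthesis, had 642, 387 and 506 in D2 KO against 137, 159 and 168 in D2 WT livers (log2 fold change 1.70, adjusted p = 0.022). Med18, a subunit of the Mediator complex of transcription, had 148, 122 and 155 in D2 KO against 42.9, 36.0 and 48.4 in D2 WT livers (log2 fold change 1.75, adjusted p = 0.0043). Serpina4-ps1, annotated as a serpin pseudogene, had 449, 317 and 347 in D2 KO against 91.8, 119 and 119 in D2 WT livers (log2 fold change 1.75, adjusted p = 0.02). For these genes D2 KO 1 was as high as, or near, the other D2 KO arrays. With run as a block Obp2a (log2 fold change 3.73, adjusted p = 0.012), Gsta2 (1.63, adjusted p = 0.012) and Med18 (1.54, adjusted p = 0.047) were called, and Dct (1.58, adjusted p = 0.12) and Serpina4-ps1 (1.62, adjusted p = 0.24) were not.

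In a second set of large rises D2 KO 1 was well under D2 KO 2 and 3. Hsd3b5, a hydroxysteroid dehydrogenase of the adult male mouse liver, had 963, 3199 and 3284 in D2 KO 1, 2 and 3, against 110.2, 115 and 314 in D2 WT 1, 2 and 3 (log2 fold change 3.77, adjusted p = 0.0088; 4.35 without D2 KO 1). Its relative Hsd3b2 had 439.9, 915 and 1039 in D2 KO against 186, 171 and 251 in D2 WT livers (log2 fold change 1.90, adjusted p = 0.003). Cyp7b1, an oxysterol hydroxylase of bile acid and steroid metabolism, had 2653, 4974 and 5568 in D2 KO against 622, 611 and 1184 in D2 WT livers (log2 fold change 2.45, adjusted p = 0.0088). In each of these genes D2 KO 1 was the lowest of the D2 KO arrays and D2 WT 3 the highest of the D2 WT arrays, though the genotypes did not overlap. Osgin1, named for its induction by oxidative stress, had 884, 1754 and 2161 in D2 KO against 519, 562 and 309 in D2 WT livers (log2 fold change 1.74, adjusted p = 0.0096). Serpina12, the serpin known as vaspin, had 426, 1381 and 1281 in D2 KO and 106, 86.4 and 102 in D2 WT livers. Susd4, a regulator of complement, had 129, 243 and 278 in D2 KO and 42.4, 55.2 and 75.9 in D2 WT livers, and Nat8, an acetyltransferase of cysteine conjugates, had 87.5, 147 and 153 and 32.3, 22.5 and 65.7. These last genes were above the D2 WT range on every D2 KO array, but the call was lost for Serpina12 without D2 KO 2 (2.92) or D2 KO 3 (2.97), for Susd4 without D2 KO 2 (1.75) or D2 KO 3 (1.65) or D2 WT 1 (1.67) and for Nat8 without D2 KO 2 (1.67) or D2 KO 3 (1.65) or D2 WT 1 (1.71) or D2 WT 2 (1.45), where the values in parentheses are log2 fold changes. With run as a block the log2 fold change was 2.79 for Hsd3b5 (adjusted p = 0.094), 1.82 for Cyp7b1 (adjusted p = 0.045), 1.58 for Hsd3b2 (adjusted p = 0.22), 1.44 for Susd4 (adjusted p = 0.18) and 0.93 for Nat8 (adjusted p = 0.53).

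9130409I23Rik, to which no role is given here, had 192, 203 and 254 in D2 KO 1, 2 and 3, against 48.7, 44.8 and 71.2 in D2 WT 1, 2 and 3 (log2 fold change 2.00, adjusted p = 1.1e-04). It was the 1 rise among the largest whose promoter held the NRF2 element, searched as TGACNNNGC on both strands. The promoter is shown because it held 3 matches, at 159, 91 and 80 bases before the start. The sequence is from RefSeq (GRCm38.p6, chr1:181050987-181051286, + strand) and runs 5′ to 3′ with the matches in capitals.
9130409I23Rik: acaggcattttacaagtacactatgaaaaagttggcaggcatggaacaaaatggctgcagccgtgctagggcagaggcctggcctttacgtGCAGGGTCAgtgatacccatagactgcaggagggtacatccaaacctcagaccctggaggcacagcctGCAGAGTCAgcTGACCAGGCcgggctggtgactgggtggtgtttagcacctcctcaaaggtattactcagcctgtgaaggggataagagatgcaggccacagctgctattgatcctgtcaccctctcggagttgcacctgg
RefSeq promoters, here 250 bases before and 50 bases after a start, were matched for 23 of the 30 genes named by the size of their change. The element was found in 1 of the 13 genes with a rise and in 3 of the 10 with a fall (Hfe, Acot3 and Usp2), beside 12.4% of all 32851 promoters. Some of these genes have more than 1 promoter, so that a count of genes and a share of promoters are not in the same unit. The E-box CACGTG (7.15% of all promoters), the D-box TTATGTAA (0.938%) and the PPAR element, a direct repeat of AGGTCA with 1 base between the repeats (0.0396%), were in no promoter of the 23 genes.

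The genes with the largest falls were led by cytochromes P450 and by enzymes of fatty acid and heme metabolism. Cyp2b9, a P450 that is higher in female than in male mouse liver, had 8.29, 0.63 and 3.83 in D2 KO 1, 2 and 3, against 395, 382 and 76.5 in D2 WT 1, 2 and 3. All D2 KO arrays were under the signal of 20, so the fall is given as at least 11.3-fold, with D2 KO set to 20 (adjusted p = 0.037). On the deposited signals the adjusted p of Cyp2b9 was 0.0093. D2 WT 3 was well below D2 WT 1 and 2. Cyp2c39, a retinoic acid hydroxylase, had 430.2, 68.7 and 65.4 in D2 KO and 1553, 1453 and 1034 in D2 WT livers (log2 fold change -3.41, adjusted p = 0.0043; -4.31 without D2 KO 1), and the neighboring Cyp2c38 had 629.6, 104 and 125 and 1532, 1327 and 988 (log2 fold change -2.65, adjusted p = 0.013; -3.47 without D2 KO 1). These P450s are close in sequence, so that their probe sets may not separate them. Cyp39a1, a hydroxylase of oxysterols, had 66.3, 29.3 and 29.2 in D2 KO and 298, 305 and 120.1 in D2 WT livers (log2 fold change -2.53, adjusted p = 0.0043). Cyp4a31, of a family of fatty acid hydroxylases, had 384, 78.2 and 155 in D2 KO and 808, 816 and 982 in D2 WT livers (log2 fold change -2.37, adjusted p = 0.0075, and -2.98 without D2 KO 1). The authors list its probe set under Cyp4a10, so that it may not separate these relatives. Abcd2, a transporter of very long-chain fatty acids into peroxisomes, had 33.8, 15.1 and 14.6 in D2 KO and 164, 155 and 136 in D2 WT livers (log2 fold change -2.95, adjusted p = 0.0012; -2.67 with the D2 KO arrays under 20 set to 20). In each of these genes D2 KO 1 was the highest of the D2 KO arrays and was still below every D2 WT array. Taking run as a block, the calls of Cyp2b9 (adjusted p = 0.36), Cyp2c39 (0.23), Cyp2c38 (0.34), Cyp4a31 (0.15) and Cyp39a1 (0.15, log2 fold change -1.64) were lost, and that of Abcd2 was kept (adjusted p = 0.047).

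Among the largest falls, Cyp4a14 and Alas1 had D2 KO 1 close to the wild type and far above the other D2 KO arrays. Cyp4a14, a fatty acid hydroxylase and a common readout of PPAR-alpha, had 5926, 193 and 421 in D2 KO 1, 2 and 3, against 8279.6, 8003 and 7693 in D2 WT 1, 2 and 3 (log2 fold change -3.35, adjusted p = 0.049; -4.81 without D2 KO 1). Alas1, the first enzyme of heme synthesis in liver, had 3387, 248 and 481 in D2 KO and 4017, 3897 and 4436 in D2 WT livers (log2 fold change -2.48, adjusted p = 0.057; -3.57 without D2 KO 1). D2 KO 1 was slightly below the D2 WT arrays for both genes, whereas D2 KO 2 and 3 were lower by a wide margin. Vldlr, the very low density lipoprotein receptor, had 125, 42.5 and 15.1 in D2 KO and 249, 225 and 177 in D2 WT livers (log2 fold change -2.31, adjusted p = 0.042). With D2 KO 3, which was under 20, set to 20, it was -2.18 (adjusted p = 0.14) and the call of Vldlr was lost. Without D2 KO 1 it was then -2.88. Of 4 probe sets of Vldlr only 1 was called, with log2 fold changes from -2.36 to -1.11. Rad51b, a homologous recombination factor, had 47.7, 0.835 and 5.62 in D2 KO and 129, 125 and 90.4 in D2 WT livers and was called (adjusted p = 0.05), but D2 KO 2 and 3 were under 20. Set to 20 they gave a log2 fold change of -2.08 (adjusted p = 0.15), at which the call of Rad51b was lost, and without D2 KO 1 a fall of at least 5.66-fold. The call was lost for Cyp4a14 without D2 KO 2 (-2.34) or D2 KO 3 (-2.90) or D2 WT 1 (-3.32) or D2 WT 2 (-3.35) or D2 WT 3 (-3.38), for Alas1 without D2 KO 2 (-1.69) or D2 KO 3 (-2.16) or D2 WT 1 (-2.49) or D2 WT 2 (-2.51) or D2 WT 3 (-2.42) and for Vldlr without D2 KO 2 (-2.30) or D2 KO 3 (-1.56) or D2 WT 1 (-2.21) or D2 WT 2 (-2.28), and for Rad51b without any 1 of the arrays other than D2 KO 1 (-2.24 to -1.87 with signals under 20 set to 20). Alas1 is the only 1 of the 23 genes with a promoter that held the STAT5 element TTCNNNGAA, found on either strand in 8.3% of all promoters. Its promoter is shown because the gene carries this match, 171 bases before the start (RefSeq, GRCm38.p6, chr9:106247905-106248204, - strand, 5′ to 3′, match in capitals).
Alas1: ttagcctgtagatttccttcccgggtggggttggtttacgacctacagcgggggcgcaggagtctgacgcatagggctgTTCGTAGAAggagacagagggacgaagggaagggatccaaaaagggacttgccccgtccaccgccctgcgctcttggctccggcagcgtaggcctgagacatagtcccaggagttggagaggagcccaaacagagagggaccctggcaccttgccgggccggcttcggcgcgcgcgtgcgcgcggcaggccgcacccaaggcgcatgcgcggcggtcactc
A second RefSeq start of Alas1 held no match to any of the motifs.

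**Figure D3:**
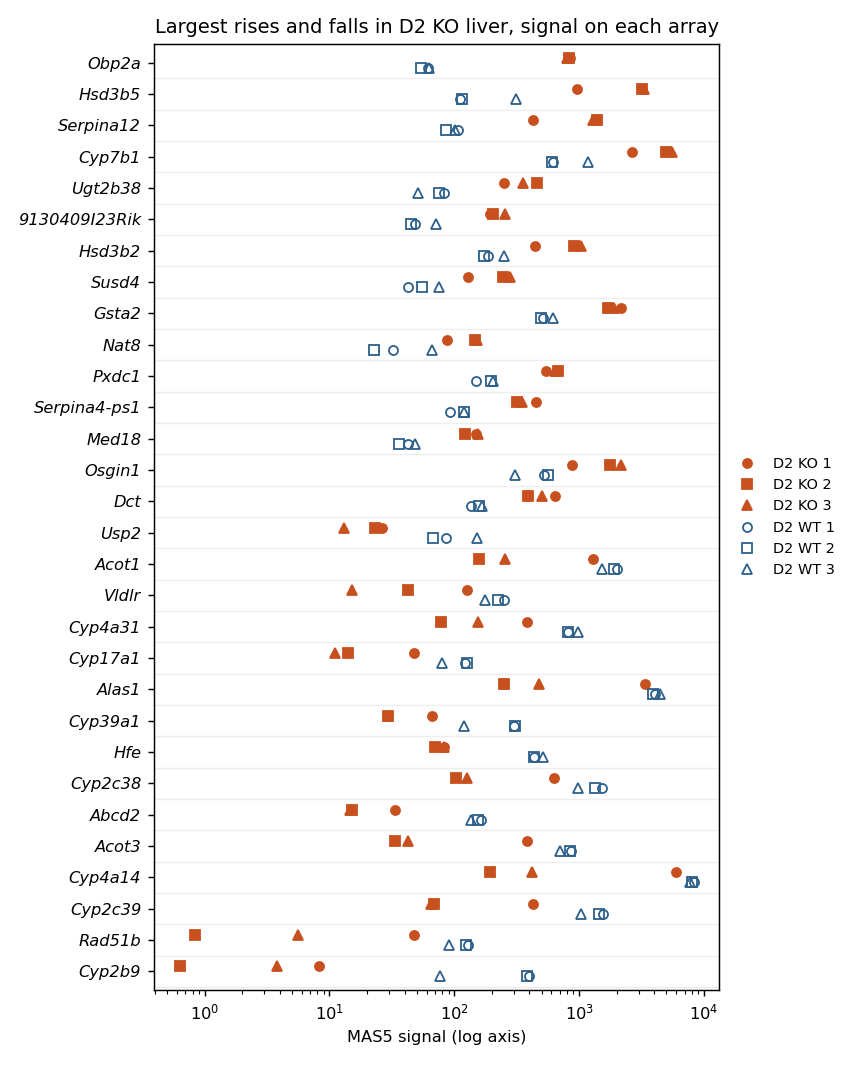
MAS5 signal on a log axis (horizontal) of the 30 genes named by the size of their change, rises above and falls below, on each array. Filled orange marks are D2 KO 1 (circle), 2 (square) and 3 (triangle), and open blue marks are D2 WT 1, 2 and 3 in the same shapes. D2 KO 1 lies between the other D2 KO arrays and the D2 WT arrays for many of the genes, and it is close to the D2 WT arrays for Cyp4a14 and Alas1.

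Genes with a known sex bias in mouse liver moved in opposite ways, although all mice were male. Of 20 genes of the male-biased list that were tested, 12 rose and 0 fell (16 and 0 at an unadjusted limma p under 0.05, beside 7.92% and 6.99% of all genes), with a median log2 fold change of 1.01. Of 18 tested genes of the female-biased list, 0 rose and 8 fell (1 and 14 unadjusted), with a median of -1.50. The median of the male-biased list was 0.55 in D2 KO 1, 1.11 in D2 KO 2 and 1.12 in D2 KO 3, each minus the D2 WT mean, and that of the female-biased list was -0.69, -1.61 and -1.65, so that D2 KO 1 shifted in the same direction but less. Ugt2b38, a glucuronosyltransferase, had 248, 457 and 357 in D2 KO and 82.8, 75.7 and 51.2 in D2 WT livers (log2 fold change 2.33, adjusted p = 2.3e-04). The authors list its probe set under Ugt2b36, so that it may not separate these relatives. C6, a component of the membrane attack complex of complement, had 1629.9, 2647 and 2730.2 in D2 KO and 715, 651 and 1291 in D2 WT livers (log2 fold change 1.43, adjusted p = 0.0088). Keg1, an acyltransferase-like protein of liver and kidney, had 2569, 1663 and 2108 in D2 KO and 998, 900.1 and 1275 in D2 WT livers, with D2 KO 1 the highest array of all (log2 fold change 0.99, adjusted p = 0.012).

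On the female-biased side, Nt5e, the ectonucleotidase CD73, had 288, 89.8 and 129 in D2 KO and 703, 609.8 and 583 in D2 WT livers (log2 fold change -2.08, adjusted p = 0.0038). Rtn4, a reticulon that shapes the endoplasmic reticulum, had 1016, 498 and 496 in D2 KO and 1603, 1433 and 1414 in D2 WT livers (log2 fold change -1.23, adjusted p = 0.014). For both genes D2 KO 1 lay about midway between the other D2 KO arrays and the D2 WT arrays. Of 4 probe sets of Rtn4 2 were called, with log2 fold changes from -1.23 to 0.11. Cyp17a1, a steroid hydroxylase and lyase, had 47.2, 14.2 and 11.1 in D2 KO and 122, 125 and 80.1 in D2 WT livers and was called (adjusted p = 0.045), but D2 KO 2 and 3 were under 20. With these set to 20 the log2 fold change of Cyp17a1 was -2.01 (adjusted p = 0.2) and the call was lost, and without D2 KO 1 the fall was at least 5.35-fold. The call of Cyp17a1 was also lost without D2 KO 2, D2 KO 3, D2 WT 1 or D2 WT 2 (-2.22 to -1.80 with signals under 20 set to 20 and any 1 array but D2 KO 1 left out). The log2 fold change of C6 with run as a block was 0.82 (adjusted p = 0.32), and the medians were then 0.68 for the male-biased and -1.27 for the female-biased list, with 4 rises and 1 fall called. In B6 livers the medians were 0.03 and -0.24, and 1 male-biased gene rose.

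The P450s as a family went both ways: 9 of 62 rose and 12 fell, with a median log2 fold change of 0.01. Besides the genes above, Cyp2c23, an epoxygenase of arachidonic acid, had 360.3, 568 and 467 in D2 KO and 204, 192 and 239 in D2 WT livers (log2 fold change 1.12, adjusted p = 0.0012). Conjugating enzymes were called mainly as rises in the lists of UDP-glucuronosyltransferases and of glutathione S-transferases, and in both directions among sulfotransferases. In the UDP-glucuronosyltransferase list 4 of 14 genes rose and 0 fell (5 and 0 at an unadjusted limma p under 0.05, median 0.30), and in the list of glutathione S-transferases and NRF2 targets 8 of 39 rose and 2 fell (14 and 6 unadjusted, median 0.16). Of 10 sulfotransferases 1 rose and 1 fell (3 and 2 unadjusted), and of 41 aldehyde and alcohol dehydrogenases and retinoid genes 0 rose and 2 fell (2 and 7 unadjusted). Beside 3.33% of all genes, the share called was 33.9% for the P450s, 28.6% for the UDP-glucuronosyltransferases and 25.6% for the glutathione list. It was 20% for the sulfotransferases and 4.88% for the dehydrogenase and retinoid list. Aox1, an aldehyde oxidase, had 872, 1109 and 1149.6 in D2 KO and 455, 394 and 517 in D2 WT livers, a clear separation with no outlying array (log2 fold change 1.20, adjusted p = 1.6e-04). Gstm6, a glutathione S-transferase of the mu class, had 580.0, 701 and 653 in D2 KO and 413, 363 and 399 in D2 WT livers (log2 fold change 0.72, adjusted p = 0.0072). Gclm, the modifier subunit of the rate-limiting enzyme of glutathione synthesis, had 1142, 1323 and 1307 in D2 KO and 772, 831 and 920.4 in D2 WT livers (log2 fold change 0.58, adjusted p = 0.0074).

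Of 38 aldo-keto reductases and hydroxysteroid dehydrogenases 5 rose and 3 fell (21.1% called, beside 3.33% of all genes, median log2 fold change 0.10). Hsd3b3, close in sequence to Hsd3b2 and so possibly not separated from it by the probes, had 761, 1492 and 1545 in D2 KO and 515, 428 and 617 in D2 WT livers (log2 fold change 1.23, adjusted p = 0.017). Of 2 probe sets of Hsd3b3 only 1 was called, and the other had 0.15. Sult5a1, a sulfotransferase of the male-biased list, had 170.2, 196 and 212 in D2 KO and 78.7, 89.1 and 108 in D2 WT livers (log2 fold change 1.08, adjusted p = 0.019). The genotypes did not overlap for either gene.

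Transporters of organic anions and cations were called in both directions, 3 rises and 3 falls of 29 genes (20.7%, beside 3.33% of all genes). Slco1a4, an uptake transporter of bile acids, steroids and drugs, had 169, 189 and 173 in D2 KO 1, 2 and 3, against 603, 589.6 and 556 in D2 WT 1, 2 and 3, with little spread in either group (log2 fold change -1.72, adjusted p = 0.0013). It was also called with run as a block (log2 fold change -1.65, adjusted p = 0.035). Slc22a30, an organic anion transporter, had 1421, 2102 and 1999 in D2 KO and 887, 840.3 and 921 in D2 WT livers (log2 fold change 1.04, adjusted p = 0.003). Abcg2, which exports porphyrins and xenobiotics, had 1232, 1358 and 1453 in D2 KO and 635, 584 and 791 in D2 WT livers (log2 fold change 1.02, adjusted p = 0.0098). It was 1 of 2 ABC transporters of 38 that rose, and 2 fell (10.5% called). Slc7a2, which takes up arginine and other cationic amino acids, had 2004, 1764 and 2080.4 in D2 KO and 2719, 2837 and 3435 in D2 WT livers (log2 fold change -0.62, adjusted p = 0.012).

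Fatty acid oxidation was the list with the most falls. Of 41 tested members 0 rose and 15 fell (36.6% called, beside 3.33% of all genes), with a median log2 fold change of -0.40. At an unadjusted limma p under 0.05 the counts were 0 and 25. Without D2 KO 1 there were 24 falls called. The median was -0.12 in D2 KO 1, -0.60 in D2 KO 2 and -0.48 in D2 KO 3. Acadl, the long-chain acyl-CoA dehydrogenase, had 1899.9, 1677 and 1645 in D2 KO and 2464, 2500.5 and 2369 in D2 WT livers (log2 fold change -0.49, adjusted p = 0.012). Crat, the carnitine acetyltransferase, had 355, 164 and 189 in D2 KO and 538, 506 and 429 in D2 WT livers, with D2 KO 1 the nearest to the wild type (log2 fold change -1.14, adjusted p = 0.019). Of 3 probe sets of Crat 2 were called, with log2 fold changes from -1.34 to 0.37. The acyl-CoA thioesterase Acot1 had 1299, 156 and 254 in D2 KO and 2000.0, 1888 and 1525 in D2 WT livers, and its peroxisomal relative Acot3 had 380.3, 33.7 and 42.2 and 867, 847 and 699.7. The log2 fold change was -2.27 for Acot1 (-3.17 without D2 KO 1) and -3.30 for Acot3 (-4.41 without D2 KO 1), and the call was lost for Acot1 without D2 KO 2 (-1.64) or D2 KO 3 (-1.99) or D2 WT 1 (-2.19) or D2 WT 2 (-2.23) and for Acot3 without D2 KO 2 (-2.66) or D2 KO 3 (-2.82) or D2 WT 1 (-3.24) or D2 WT 2 (-3.26). With run as a block the list median was -0.38 and the smallest adjusted p of a member was 0.27, for Acadl, so that every call of the list was lost. In B6 livers the median was -0.18. The list of fatty acid synthesis and lipid droplets had 1 rise and 3 falls of 39 (10.3% called). The rise was Elovl3, an elongase of very long-chain fatty acids, with 4363, 5016 and 5254 in D2 KO and 2095, 1834 and 2019 in D2 WT livers (log2 fold change 1.30, adjusted p = 0.022), a call lost for Elovl3 without D2 KO 3 (1.24).

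Other lipid genes fell. Pltp, the phospholipid transfer protein of plasma, had 459, 226 and 270.3 in D2 KO and 734, 998 and 709 in D2 WT livers (log2 fold change -1.40, adjusted p = 0.0087). Retsat, the retinol saturase, had 3179, 1914 and 2003 in D2 KO and 4688, 4421 and 3888 in D2 WT livers (log2 fold change -0.91, adjusted p = 0.011). D2 KO 1 was the highest D2 KO array for both. In sugar metabolism Pklr, the liver pyruvate kinase, had 203, 308 and 298 in D2 KO and 126, 135 and 132 in D2 WT livers (log2 fold change 1.01, adjusted p = 0.0058). It was 1 of 2 rises beside 2 falls among 23 genes of glycolysis and glycogen (17.4% called, beside 3.33% of all genes). Of 52 genes of the urea cycle and amino acid breakdown 2 rose and 3 fell (9.62% called). Got1, the cytosolic aspartate aminotransferase, had 1214, 1036 and 1251 in D2 KO and 2453, 2253 and 3046 in D2 WT livers (log2 fold change -1.14, adjusted p = 3.1e-04), and it was called with run as a block as well (log2 fold change -1.39, adjusted p = 0.0032). Haao, a dioxygenase of tryptophan breakdown, had 2042, 2781 and 2557 in D2 KO and 1294, 1313 and 1569 in D2 WT livers (log2 fold change 0.82, adjusted p = 0.0081).

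Most genes of protein folding and secretion were not called, and the calls in the ER lists were mostly rises. Of 36 genes of ER stress and ER chaperones 9 rose and 1 fell (27.8% called, beside 3.33% of all genes), with a median log2 fold change of 0.29. The median was 0.41 in D2 KO 1, 0.23 in D2 KO 2 and 0.30 in D2 KO 3. Here D2 KO 1 was not the weakest. The 9 rises became 1 with run as a block, and no fall was called. Pdia6, a protein disulfide isomerase, had 1093, 1411 and 1409.8 in D2 KO and 618, 546 and 610.5 in D2 WT livers (log2 fold change 1.13, adjusted p = 0.0062), also called with run as a block (log2 fold change 1.09, adjusted p = 0.029). Ern1, the ER stress sensor IRE1, had 454, 419 and 438 in D2 KO and 264, 209 and 262 in D2 WT livers (log2 fold change 0.84, adjusted p = 0.003). Sdf2l1, an ER chaperone cofactor, had 237, 173 and 195 in D2 KO and 62.5, 57.4 and 109 in D2 WT livers, with D2 WT 3 above the other D2 WT arrays (log2 fold change 1.45, adjusted p = 0.017). Of 48 genes of the translocon, signal peptidase and ER-Golgi traffic 7 rose and 1 fell (16.7% called, median 0.09). Among the rises was Sec61b, a subunit of the translocon, with 871, 1214 and 1303 in D2 KO and 705, 599 and 697 in D2 WT livers (log2 fold change 0.74, adjusted p = 0.017). With run as a block the calls of Ern1 (adjusted p = 0.11), Sdf2l1 (0.27) and Sec61b (0.26) were lost, and none of the translocon list was called. Of 34 cytosolic chaperones 1 rose and 0 fell (2.94% called, 2 and 9 at an unadjusted limma p under 0.05), with a median of -0.11. Without D2 KO 1 there were 1 rise and 8 falls. In B6 livers the median of the ER stress list was 0.06.

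Secreted proteins of the liver had few calls by number, but the share called was mostly above that of all genes. Of all genes 1.74% rose and 1.59% fell, together 3.33%. The share called was 16.7% for complement, 16% for serpins and 16.7% for major urinary proteins and lipocalins. It was 8.33% for acute phase and 3.85% for coagulation and fibrinolysis. Of 24 complement genes 4 rose and 0 fell (8 and 1 at an unadjusted limma p under 0.05). Of 24 acute phase genes 0 rose and 2 fell (1 and 3 unadjusted). Fgl1, a hepatocyte-secreted fibrinogen-like protein, had 2229, 1185 and 1569 in D2 KO 1, 2 and 3, against 3698, 4324 and 4769 in D2 WT 1, 2 and 3 (log2 fold change -1.40, adjusted p = 0.0012). It was also called with run as a block (log2 fold change -1.57, adjusted p = 0.041). Among 25 serpins 2 rose and 2 fell, among 12 major urinary proteins and lipocalins 1 rose and 1 fell, and of 26 genes of coagulation and fibrinolysis 1 rose and 0 fell (2 and 0 unadjusted). In the list of selenoproteins and peroxidases 2 of 29 rose (6.9% called). Selenbp1, a selenium-binding protein, had 4315, 10062 and 9582 in D2 KO and 2535, 2289.9 and 2889.8 in D2 WT livers, with D2 KO 1 far under D2 KO 2 and 3 (log2 fold change 1.54, adjusted p = 0.0087). The authors list this probe set, of a design that transcripts can share, under Selenbp2, so that it may not separate these genes. Nox4, an NADPH oxidase that makes hydrogen peroxide, had 411, 650.2 and 618 in D2 KO and 158, 176 and 305 in D2 WT livers (log2 fold change 1.43, adjusted p = 0.0097). Il1rn, the interleukin-1 receptor antagonist, had 37.0, 36.7 and 13.9 in D2 KO and 123, 74.5 and 111 in D2 WT livers (log2 fold change -1.92, adjusted p = 0.017), the 1 fall, beside 1 rise, among 63 chemokine and cytokine genes. D2 KO 3 was under a signal of 20. Set to 20, it gave a log2 fold change of -1.74 (adjusted p = 0.064), and Il1rn was still called. With signals under 20 set to 20 that call was lost without any 1 of the arrays other than D2 KO 1 (-1.96 to -1.45). On the deposited signals the call of Il1rn was kept whichever array was left out.

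Of 45 genes of iron and hepcidin regulation 1 rose and 7 fell (17.8% called, beside 3.33% of all genes), with a median log2 fold change of -0.04. Hamp, which encodes hepcidin, had 1111, 2027 and 1719 in D2 KO 1, 2 and 3, against 5043, 4952 and 4132 in D2 WT 1, 2 and 3 (log2 fold change -1.58, adjusted p = 4.0e-04), and its duplicate Hamp2 had 4048, 6749.9 and 4367 and 13527, 13282 and 12978 (log2 fold change -1.43, adjusted p = 0.0018). The transcripts of this pair are close in sequence, so that their probes may not separate them. By quantitative PCR the authors found both falls again in the mice of the arrays, but in further mice only a trend toward them. D2 KO 1 was the lowest array for both genes. Among all 207 called falls it lay between the D2 WT arrays and D2 KO 2 and 3 for 159, and at their range or beyond for 44. Tfrc, transferrin receptor 1, had 107, 105 and 107 in D2 KO and 242, 201 and 333 in D2 WT livers (log2 fold change -1.25, adjusted p = 0.024), with nearly equal D2 KO arrays. Of 3 probe sets of Tfrc only 1 was called, with log2 fold changes from -1.61 to -1.06. Alas2, the erythroid enzyme of the first step of heme synthesis, had 1569.6, 2189 and 1931 in D2 KO and 773, 704 and 1018 in D2 WT livers (log2 fold change 1.19, adjusted p = 0.0018). It is also the only erythroid marker called, and of the 5 erythroid markers on the array Hba-a1 and Epb42 were under a signal of 20 on all 6 arrays. Klf1 had 47.8, 53.1 and 69.8 in D2 KO and 67.7, 72.2 and 79.6 in D2 WT livers. Slc4a1 had 25.2, 26.8 and 9.55 in D2 KO and 22.1, 23.2 and 27.6 in D2 WT livers. Neither of them rose. The erythroid sum ran at 1646 to 2280 in D2 KO and 809 to 1150 in D2 WT livers, most of it Alas2 itself. Of 39 metal ion transporters and metallothioneins 4 rose and 0 fell (10.3% called, 6 and 1 at an unadjusted limma p under 0.05).

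Clock genes included 1 rise and 3 falls among 23 (17.4% called, beside 3.33% of all genes). Usp2, a deubiquitinase that cycles with the clock, had 26.3, 22.98 and 13.1 in D2 KO and 85.2, 67.8 and 151 in D2 WT livers (log2 fold change -2.26, adjusted p = 0.019). With D2 KO 3, which was under 20, set to 20, it was -2.06 (adjusted p = 0.101) and the call of Usp2 was lost. Arntl, the core activator BMAL1, had 99.0, 201 and 190.0 in D2 KO and 77.3, 74.1 and 40.7 in D2 WT livers (log2 fold change 1.34, adjusted p = 0.041), with D2 KO 1 near the D2 WT arrays. Per3, a period repressor, had 38.4, 33.4 and 36.5 in D2 KO and 91.4, 94.1 and 122 in D2 WT livers (log2 fold change -1.50, adjusted p = 0.047). Of 5 probe sets of Per3 only 1 was called, with log2 fold changes from -1.50 to -0.25. The call was lost for Arntl without D2 KO 2 (1.16) or D2 KO 3 (1.19) or D2 WT 3 (1.04) and for Per3 without D2 KO 2 (-1.44) or D2 KO 3 (-1.50) or D2 WT 1 (-1.57) or D2 WT 2 (-1.55) or D2 WT 3 (-1.36). All of Usp2 (-2.92), Arntl (1.93) and Per3 (-1.76) were called with run as a block, on the log2 scale. The hour at which each animal was killed was not used here.

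A further set of genes was called when D2 KO 1 was left out, 255 rises and 294 falls that were not called with it (3.62% of all genes were called as rises without it and 3.79% as falls). Over all genes called without D2 KO 1, that array lay within the D2 WT range or past it for 137 of 471 rises and 171 of 493 falls (29.1% and 34.7%), beside 62.8% of all 13006 genes. These genes were called on the distance of D2 KO 2 and 3 from the wild type, so that the choice itself sets D2 KO 1 nearer to it. The median of the rises was 0.28 in D2 KO 1 against 0.65 in D2 KO 2 and 3, and that of the falls -0.21 against -0.69, each minus the same D2 WT mean. For the genes called with all arrays D2 KO 1 lay there for 4 of 226 rises and 4 of 207 falls. All D2 KO arrays are set here against the same D2 WT arrays, and no test was made of these counts.

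Srebf1, the master regulator of fatty acid synthesis SREBP-1, had 349.6, 1156 and 1251 in D2 KO 1, 2 and 3, against 431, 380.1 and 487 in D2 WT 1, 2 and 3. D2 KO 2 and 3 were well above the wild type and D2 KO 1 was below it (log2 fold change 0.89, adjusted p = 0.24; without D2 KO 1 1.48, adjusted p = 1.9e-05). Hmox1, the inducible heme oxygenase, had 71.1, 128 and 198 in D2 KO and 60.5, 65.5 and 59.0 in D2 WT livers (log2 fold change 0.98, adjusted p = 0.12; without D2 KO 1 1.37, adjusted p = 0.0048). Krt8, a keratin of epithelial cells, had 755, 1167 and 1116 in D2 KO and 721, 702 and 748 in D2 WT livers (log2 fold change 0.46, adjusted p = 0.15; without D2 KO 1 0.66, adjusted p = 0.0047). Among the falls, Slc22a5, the carnitine transporter, had 644, 242 and 275 in D2 KO and 661, 719.7 and 625 in D2 WT livers (log2 fold change -0.93, adjusted p = 0.11; without D2 KO 1 -1.37, adjusted p = 1.2e-04). Gpat4, a glycerol-phosphate acyltransferase of triglyceride synthesis, had 616, 315 and 279 in D2 KO and 647, 539 and 578 in D2 WT livers (log2 fold change -0.63, adjusted p = 0.18; without D2 KO 1 -0.98, adjusted p = 2.6e-04). D2 KO 1 was at the wild-type level for both. The other genes named by the same rule were Foxn3, Wdr91, Qprt, C8b, Tbcel, Rpn1 and Wbp1 among the rises, and Mfsd2a, Tmed5, Hsdl2, Etfbkmt, Glrx, Rtf2, Wdr36 and 1810055G02Rik among the falls.

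Genes with D2 KO 1 outside the range of the other 5 arrays are given as a description, with no test. D2 KO 1 was the highest array for 941 and the lowest for 926 of 5979 genes with a mean signal of at least 100, no more than the other arrays, which were each the highest for 755 to 1333 and the lowest for 752 to 1199. Mfsd2a, a transporter of lysophospholipids that is induced by fasting, had 526, 52.3 and 69.2 in D2 KO and 314, 325 and 450.4 in D2 WT livers. Cd36, a fatty acid uptake receptor, had 592, 107 and 124 in D2 KO and 269, 230.2 and 216 in D2 WT livers. Fgf21, a hormone that the fasted liver secretes, had 416, 95.7 and 145 in D2 KO and 250.2, 148 and 132 in D2 WT livers. In these genes D2 KO 1 was above every D2 WT array, and D2 KO 2 was below every D2 WT array. Socs2, a feedback inhibitor of growth hormone signaling, had 786, 131 and 80.9 in D2 KO and 514, 508 and 429.7 in D2 WT livers, and Slc25a30, a mitochondrial carrier, had 1854, 441 and 642 and 647, 672 and 479. Socs2 was above every D2 WT array in D2 KO 1 and below every D2 WT array in D2 KO 2 and 3.

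**Figure D4:**
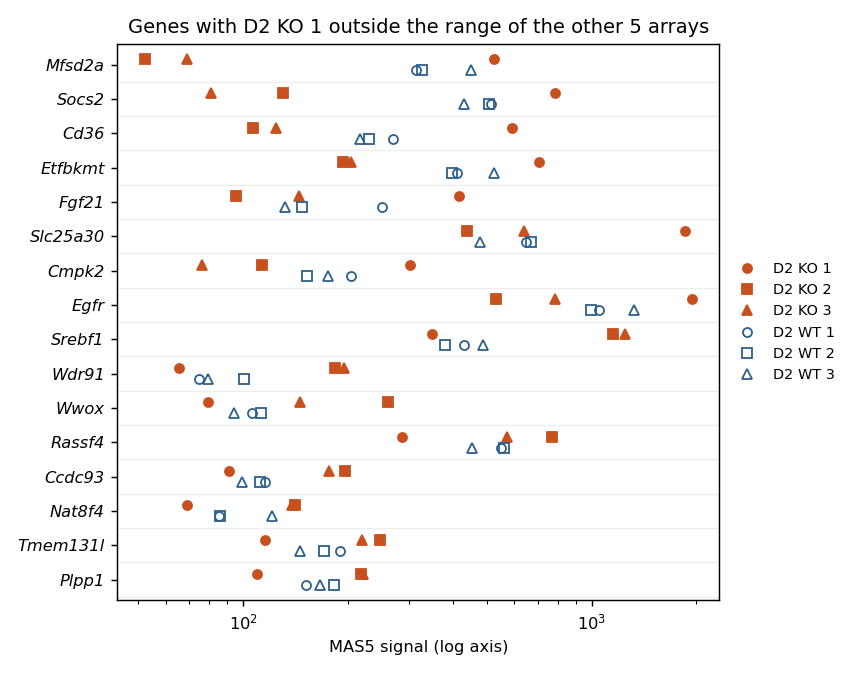
MAS5 signal on a log axis (horizontal) of 16 genes in which D2 KO 1 lies outside the range of the other 5 arrays, the upper 8 with D2 KO 1 highest and the lower 8 with D2 KO 1 lowest. Filled orange marks are D2 KO arrays and open blue marks D2 WT arrays; circles, squares and triangles are replicates 1, 2 and 3. The genes were chosen by this separation, so that it is no test.

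Interferon-stimulated genes lay near the wild-type level in D2 KO 1 and below it in D2 KO 2 and 3. Of 38 tested members 0 rose and 3 fell with all arrays (7.89% called, beside 3.33% of all genes). At an unadjusted limma p under 0.05 the counts were 0 and 13, and 15 fell by adjusted p without D2 KO 1. The list median was -0.06 in D2 KO 1, -0.50 in D2 KO 2 and -0.65 in D2 KO 3. Usp18, which removes ISG15 and dampens interferon signaling, had 433, 141 and 177 in D2 KO and 489, 510.3 and 521 in D2 WT livers (log2 fold change -1.20, adjusted p = 0.067; without D2 KO 1 -1.68, adjusted p = 1.2e-04). Ifit3, an antiviral effector, had 274, 149 and 161 in D2 KO and 349, 384 and 363 in D2 WT livers (log2 fold change -0.96, adjusted p = 0.061). Ifit1, of the same family, had 301, 107 and 109.8 in D2 KO and 329, 321 and 449 in D2 WT livers (log2 fold change -1.25, adjusted p = 0.12; without D2 KO 1 -1.74, adjusted p = 0.0044). The call was lost for Usp18 without D2 KO 2 (-0.87) or D2 KO 3 (-1.04) or D2 WT 1 (-1.22) or D2 WT 2 (-1.19) or D2 WT 3 (-1.18) and for Ifit3 without D2 KO 2 (-0.80) or D2 KO 3 (-0.86) or D2 WT 1 (-0.996) or D2 WT 2 (-0.93) or D2 WT 3 (-0.97). In B6 livers the median of the list was -0.37.

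**Figure D5:**
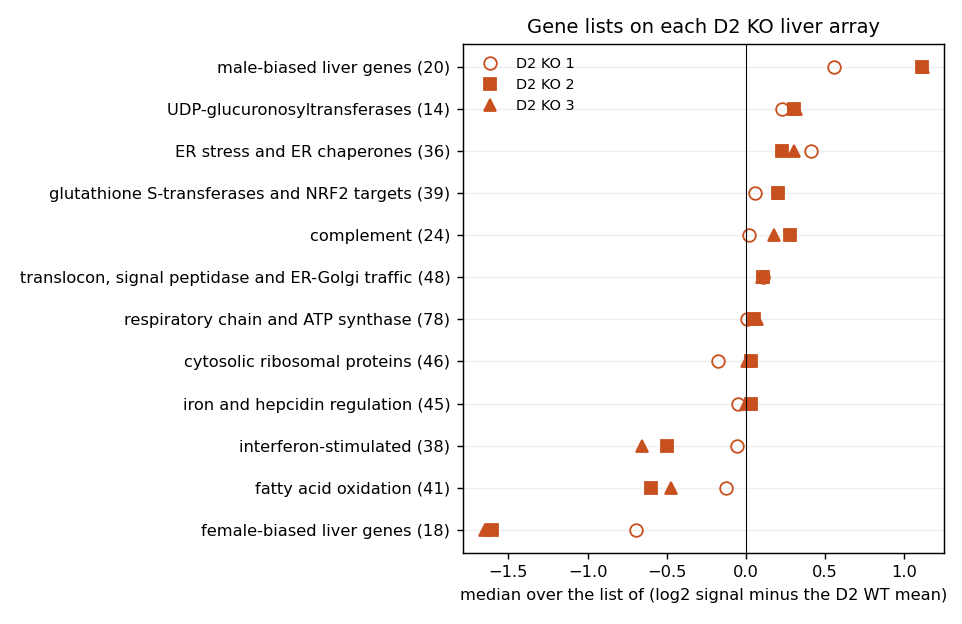
Median over the tested genes of each list (number in parentheses) of log2 signal minus the D2 WT mean (horizontal axis), for D2 KO 1 (open circle), D2 KO 2 (filled square) and D2 KO 3 (filled triangle). D2 KO 1 is nearest to 0 for the male-biased, female-biased, fatty acid oxidation and interferon lists, and it is the highest of the D2 KO arrays for the ER stress list.

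Many parts of the cell's machinery had no call. None was called among 78 genes of the respiratory chain and ATP synthase, whose median log2 fold change was 0.04, among 26 of the TCA cycle (-0.05), 46 cytosolic ribosomal proteins (-0.03), 55 genes of lysosome and autophagy (0.02), 81 histones and chromatin modifiers (0.08), 56 MAP kinases and dual-specificity phosphatases (0.05), 27 genes of antigen presentation (-0.09), 17 carboxylesterases (-0.00), 21 genes of gluconeogenesis and fasting (-0.27) and 30 immediate early genes (-0.15). At an unadjusted limma p under 0.05, 22 of these 437 memberships were higher in D2 KO (5.03%) and 31 lower (7.09%). A missing call does not show that a gene was unchanged. Of the 433 called genes 142 rises and 122 falls were in none of the 58 lists, which held 2124 tested genes.

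On the chromosomes the share of called genes was highest on 19, with 10 rises and 19 falls of 481 genes (6.03%), on 13, which carries Hfe, with 15 rises and 10 falls of 483 (5.18%), and on 3, with 22 rises and 7 falls of 646 (4.49%). Within 20 Mb of Hfe 10 of 143 genes rose and 8 fell, the disrupted Hfe among the falls, 12.6% beside 3.23% of all other genes. In B6 livers 3 genes of this window rose and 4 fell, beside 0.638% and 0.507% of all genes. Pxdc1, a PX domain protein, had 545, 682 and 644 in D2 KO and 148, 195 and 206 in D2 WT livers (log2 fold change 1.78, adjusted p = 3.8e-06). Zkscan3, a zinc finger repressor of autophagy genes, had 528, 580.2 and 503 in D2 KO and 232, 208 and 219 in D2 WT livers (log2 fold change 1.29, adjusted p = 6.7e-06). Agtr1a, the angiotensin II receptor, had 884, 774 and 856 in D2 KO and 1724, 1559 and 1574 in D2 WT livers (log2 fold change -0.95, adjusted p = 2.0e-04). The arrays of both genotypes were tight for all of them, D2 KO 1 included. The other called genes of the region were Akr1c14, Bphl, Cmah, Serpinb6b, Slc17a3, Ssr1, Stard3nl and Tmem14c, which rose, and Akr1c19, Elovl2, Gmnn, Ly86, Mcur1 and Serpinb1a, which fell. Mcur1, a regulator of mitochondrial calcium uptake, had probe sets called in opposite directions, with log2 fold changes of -0.48 and 0.84. A difference in sequence under a probe and a change in level cannot be told apart here.

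The D2 response was compared with that of B6 livers, which share no array with it. Of the 226 genes that rose in D2, 21 also rose in B6 (0.638% of all genes did) and 3 fell, and of the 207 that fell 11 also fell in B6 (0.507%) and 1 rose. The median B6 log2 fold changes of the D2 rises and falls were 0.15 and -0.18. The D2 and B6 effects differed by the interaction test for 14 of the rises and 10 of the falls (0.223% of all genes passed it). Genes that rose in D2 and also in B6 included Gclm, with log2 fold changes of 0.58 in D2 and 0.57 in B6, and 9130409I23Rik, with 2.00 and 1.86. In the duodenum of the same D2 mice 5 of the rises also rose (0.308% of all genes did) and 3 of the falls also fell (0.138%). Of these 8 genes 7 lie on chromosome 13, namely Pxdc1, Zkscan3, Stard3nl, Asb13, Akr1c19, Hfe and Mcur1, and Arntl lies on 7, with a log2 fold change of 0.94 in the duodenum (adjusted p = 0.011).

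Of 13 lists of cell type markers, the erythroid list, given above with Alas2, and the pancreatic acinar list had a call each. The pancreatic acinar one had 1 rise of 9 genes, Cela1, with 610.4, 1178 and 1147 in D2 KO and 399, 417 and 400.0 in D2 WT livers (log2 fold change 1.21, adjusted p = 0.0098), while the mean of the other 8 genes was under 20 and the list summed to 647 to 1241 in D2 KO and 443 to 470 in D2 WT livers. The hepatic stellate markers summed to 3833 to 4315 in D2 KO and 4492 to 4764 in D2 WT livers, with no overlap between the genotypes and none of 9 called. The largest part of the sum was Dcn, with 2007, 2071 and 2096 in D2 KO and 2584, 2444 and 2336 in D2 WT livers. Colec11, Ecm1, Pdgfrb and Des, the last under 20 on all arrays, were also lower on every D2 KO array. Reln, Lrat, Acta2 and Col1a1 overlapped between the genotypes. The sums for Kupffer cells and macrophages were 2426 to 3073 in D2 KO and 2240 to 3243 in D2 WT livers. As a sign of RNA quality, the 3′ to 5′ signal ratio of beta-actin averaged 2.01 in D2 KO and 2.26 in D2 WT livers (two-sided exact permutation test, p = 0.1, the smallest that 3 against 3 arrays allow, with no overlap between the genotypes), and that of Gapdh 0.831 and 0.781 (exact p = 0.2). The part of these differences in the gene changes was not tested.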

How the data were processed

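Liver RNA of 3 D2 Hfe-/- and 3 D2 wild-type mice was hybridized to Affymetrix mouse genome arrays, 1 array per mouse. The authors made the deposited intensity values with the MAS5 method (version not given in the sources used here) and brought every array to the same level, since its mean signal is 100 once the top and bottom 2% of probe sets are set aside. The number of arrays limits the precision. Detection calls were not used here.

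AFFX controls were left out and log2 of the signal was taken with no pseudocount. The 12 liver arrays entered 1 limma model of 4 groups (limma 3.58.1, R 4.3.3, with the R package data.table, version 1.17.8, for reading; lmFit and eBayes, trend on), so that the spread is shared with the B6 groups, and Benjamini-Hochberg adjustment ran over the 28061 tested probe sets. Duodenum was fitted apart. Gene symbols come from the platform annotation supplied with the data, in which 34958 probe sets carry 1 symbol, 932 several and 9211 none. Of the called probe sets 90 lack a single symbol and are not named. A run is a set of arrays whose hybridizations in the experiment files were less than 30 minutes apart.

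Named genes are the 15 largest called rises and 15 falls whose genotypes do not overlap and whose higher group averages a signal of 100 or more, up to 5 per list by adjusted p, 10 each way called only without D2 KO 1, 8 each way with D2 KO 1 outside the other arrays, called genes within 20 Mb of Hfe, and genes with opposite probe sets. Asb13 and Cela1 were named after their values were seen. The members and lists were chosen with earlier results of these data known. Alternatives were log2 of signal plus 16, quantile normalization, no filter, floors of 20 or 100 in liver, an adjusted p of 0.05, a 1.5-fold minimum, the 6 D2 arrays alone, no trend, run or replicate number as a block, the run of the D2 KO arrays alone, the mean over a gene's probe sets, each array left out and, chosen after seeing the data, signals under 20 set to 20. The fit was tested on simulated data.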

Additional observations from a re-analysis of the deposited data

Results flagged for a closer look

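The difference between Hfe-/- and wild-type livers was not the same in D2 and B6 for 16 of the named genes. It was tested by the interaction term of limma (D2 difference minus B6 difference, log2 scale, Benjamini-Hochberg adjusted p of at most 0.1). The test rests on 3 arrays per group, and origin of the mice goes with genotype in both strains.

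Near Hfe on chromosome 13 the interaction was 1.89 for Pxdc1 (adjusted p = 0.00056), 1.40 for Zkscan3 (0.00056), -1.66 for Akr1c19 (0.00061), 1.64 for Stard3nl (0.019) and 2.85 for Serpinb6b (0.021). Akr1c19 fell in D2 (log2 fold change -0.95) and rose in B6 (0.71), and Stard3nl rose in D2 (0.73) and fell in B6 (-0.91), so that their signals went opposite ways in the 2 strains. For these genes near Hfe a difference in sequence under a probe and a change in level cannot be told apart. Hepcidin differed too, with -1.53 for Hamp (adjusted p = 0.025) and -1.92 for Hamp2 (0.0093), where the B6 log2 fold changes were -0.05 and 0.49.

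Among steroid, drug and lipid genes the interaction was 2.78 for Ugt2b38 (adjusted p = 0.0046), 2.78 for Cyp7b1 (0.097), 1.63 for Hsd3b3 (0.085), 1.07 for Cyp2c23 (0.064) and -2.72 for Abcd2 (0.068). Of the remaining genes Obp2a had 3.49 (adjusted p = 0.010), Fmn2, an actin nucleator, 2.83 (0.0088), Med18 2.28 (0.022) and Serpina6, which encodes the corticosteroid-binding globulin, -0.90 (0.062). Fmn2 rose in D2 (log2 fold change 1.17) and fell in B6 (-1.66).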

How the results depend on the processing

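The 773 probe sets called in D2 liver became 86 without the mean-variance trend, 109 with hybridization run as a block, 70 within the run of the D2 KO arrays, 390 at an adjusted p of 0.05 and 482 at a minimum of 1.5-fold. Leaving out each array in turn gave 220 (without D2 KO 2) to 1740 (without D2 KO 1). With signals under 20 set to 20, an alternative chosen after seeing the data, there were 524. The other alternatives gave 554 to 1094. Within the run D2 WT 3 is the lone wild-type array and was assumed to vary like the other groups. Leaving out each array gave 56 to 412 probe sets in B6 liver (287 with all arrays), 26 to 635 for the interaction (60) and 17 to 783 in D2 duodenum (106). The cause of these differences was not tested.

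Same-numbered liver arrays did not pair: the correlations of their deviations from the group means were -0.020 to 0.051. With replicate number as a block the D2 liver count was 743, B6 liver 257, the interaction 56 and D2 duodenum 42.

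Over the 154 called genes of the naming rule, 2640 of the values recomputed under the alternatives kept their call and 954 lost it. The losses were most under the run alone (139 genes), without the trend (126) and with run as a block (121), beside 66 with signals under 20 set to 20. The direction turned for 3 genes, when the mean over a gene's probe sets was taken: Cpt2 (log2 fold change 0.083), Mcur1 (0.18) and Neat1 (0.21). Other named genes too had probe sets without a call. Only 1 of 3 was called for Ern1 (0.28 to 1.58). Only 1 of 2 was called for Arntl (0.64 to 1.34), Gclm (0.31 to 0.58) and Hfe (-2.55 to -0.97). Weak signals limit the least abundant genes: 38 of the called genes had at least 1 of the 6 arrays under a signal of 20, and 23 had all arrays of a genotype under it.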

Other observations

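Several genes outside the lists were called whichever of the 6 D2 arrays was left out. They were picked from that core after their values were seen, for having a known role. Among the rises, Bdh2, a cytosolic dehydrogenase that makes a mammalian siderophore, had signals of 139.6, 224 and 161 in D2 KO 1, 2 and 3, against 68.0, 62.0 and 109 in D2 WT 1, 2 and 3 (log2 fold change 1.15, adjusted p = 0.017). Aox3, an aldehyde oxidase next to Aox1, had 493, 1082 and 1145 in D2 KO and 282, 239 and 314 in D2 WT livers (log2 fold change 1.62, adjusted p = 0.005). Aqp8, a water and peroxide channel, had 798, 1503 and 1063 in D2 KO and 543, 560.1 and 439 in D2 WT livers (log2 fold change 1.08, adjusted p = 0.011). The genotypes did not overlap for any of these genes. Sucnr1, the succinate receptor, had 437, 787 and 569 in D2 KO and 220.3, 238 and 333 in D2 WT livers (log2 fold change 1.16, adjusted p = 0.009), and Ddc, the aromatic amino acid decarboxylase, had 1042, 1007 and 1194 and 627, 531 and 549 (log2 fold change 0.93, adjusted p = 0.0012).

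Among the falls, Sdc1, a heparan sulfate proteoglycan of the hepatocyte surface, had 1186, 1211 and 1099.5 in D2 KO and 1751, 1687 and 1799.8 in D2 WT livers (log2 fold change -0.58, adjusted p = 0.019). Vnn3, of the vanin family of pantetheinases, had 1326, 1093 and 1011 in D2 KO and 1878, 1795 and 1667 in D2 WT livers (log2 fold change -0.65, adjusted p = 0.009). Oplah, the oxoprolinase of the glutathione cycle, had 706, 369 and 481 in D2 KO and 910.4, 1004 and 905 in D2 WT livers (log2 fold change -0.91, adjusted p = 0.016). The changes of Sdc1, Vnn3 and Oplah were smaller than those of the leading genes, and their arrays did not overlap between genotypes. With run as a block Ddc (adjusted p = 0.012) and Sdc1 (0.054) kept their call, and Bdh2, Aox3, Aqp8, Sucnr1, Vnn3 and Oplah lost it.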
